A study of Rattus norvegicus with 22 samples.

Results

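NMDA receptor subunits were examined as a gene family in identified neurons of the neonatal rat spinal cord. Members were all probe sets that the platform annotation assigns to Grin1, Grin2a, Grin2b, Grin2c, Grin2d, Grin3a or Grin3b, whatever their values. The rule found 9 of 1050 probe sets, for 6 of the 7 genes, and none was annotated to Grin3b. The samples were descending commissural interneurons (dCINs, labelled CIN; 7 arrays), motoneurons (MNs; 7 arrays) and cells taken at random from the ventral horn (MIX; 8 arrays), which may include cells of both types. All came from neonatal Wistar rats, with 1 animal behind each array and no treatment other than the tracer. A rhodamine dextran tracer was applied to axons cut in the lumbar cord for dCINs or in the ventral roots for MNs, left for about 3 hours, and the labelled cells were laser microdissected from 10 µm sections. The labels give 50 to 100 cells per dCIN sample, 55 to 250 per MN sample and 95 to 187 per MIX sample. RNA was amplified in 2 rounds, so each value describes a pool of cells, and fewer cells that express a gene cannot be told apart from less RNA per cell.

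NMDA receptors are cation channels opened by glutamate together with a co-agonist, glycine or D-serine, and they admit calcium once depolarization relieves a magnesium block. Grin1 encodes GluN1, the subunit that functional NMDA receptors need. Grin2a to Grin2d encode the GluN2 subunits, which bind glutamate and set the kinetics and magnesium sensitivity of the channel, and Grin3a and Grin3b encode the glycine-binding GluN3 subunits. In the isolated neonatal rodent cord, NMDA is commonly applied to evoke locomotor-like rhythms, in which commissural interneurons and MNs take part.

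Promoter windows are shown for Grin1 and Grin2c. Log2 signals of the Grin1 probe set U11418_s_at and the Grin2c probe set correlated over the 22 arrays (r = 0.93). Without MN arrays 1 and 2 this was r = 0.72, and for the Grin1 probe set S39221_g_at it was r = -0.61 over the 22 arrays. Shared regulation was not tested. The windows run from 250 bases before to 50 bases after the RefSeq gene start (rat build GRCr8, minus strand in both cases). Capitals mark a GC box, the letters GGGCGG on either strand.
Grin1, chr3:28528705-28529004: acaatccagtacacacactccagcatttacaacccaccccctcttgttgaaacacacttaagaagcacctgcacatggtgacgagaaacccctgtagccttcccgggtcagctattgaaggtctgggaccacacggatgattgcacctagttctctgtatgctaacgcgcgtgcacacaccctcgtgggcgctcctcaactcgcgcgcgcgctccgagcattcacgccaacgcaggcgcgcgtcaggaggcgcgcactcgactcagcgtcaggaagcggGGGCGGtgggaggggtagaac
Grin2c, chr10:101005089-101005388: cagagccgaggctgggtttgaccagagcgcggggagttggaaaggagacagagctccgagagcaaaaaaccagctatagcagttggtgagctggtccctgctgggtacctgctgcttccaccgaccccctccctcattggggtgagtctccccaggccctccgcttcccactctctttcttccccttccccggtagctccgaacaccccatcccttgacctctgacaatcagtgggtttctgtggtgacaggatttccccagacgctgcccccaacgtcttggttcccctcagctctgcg
The Grin1 window held 1 GC box, at position 30 after the start, and 25 CpG dinucleotides, with a GC content of 59.7%. The Grin2c window held no GC box and 11 CpG dinucleotides, with a GC content of 60.3%. GC boxes were found in 33.1% of all 33469 rat windows of this length, and the median GC content was 51.7%. Windows of Grin2d (60.7% GC) and Grin3a (58.7% GC) had no GC box either, and TATAAA was in none of the windows of these 4 genes, against 14.2% of all windows. These are descriptions of the letters in the window.

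Values are the deposited expression summaries, intensities on a linear scale called signal here. They were compared as log2 values with limma, with p-values adjusted across the whole table of 1050 probe sets (Benjamini-Hochberg) and calls made under 0.1. Levels of different probe sets were not compared, with 2 exceptions. The brightest probe set of a gene was picked for a search across genes, and some members were set against the array medians. Whether a member was detected was not tested. Some arrays stood apart. MN arrays 1 and 2, with 250 and 230 cells, and dCIN array 1, with 60 cells, had the highest array medians, 50.8 to 50.9 against 43.5 to 48.6 in the other 19 arrays. Their upper quartiles were 91.5 to 96.6, against 74.1 to 86.9 in the others. The array number is the replicate number of the labels and no source gives it as a batch. Values are therefore also given without these MN arrays, and for some probe sets without dCIN array 1. Summed signals of marker probe sets are given by group as a description. Of 8 motor neuron marker genes, 5 were measured (Slc18a3, Calcb, Nefl, Nefh and Sncg), and their sums were 2843 to 4766 in dCINs, 12330 to 14200 in MNs and 5717 to 10660 in MIX. Of 5 inhibitory neuron genes, only Slc32a1, the vesicular transporter of GABA and glycine, was measured, with sums of 387 to 804 in dCINs, 72.1 to 399.8 in MNs and 242 to 616.5 in MIX. The paper listed all of these measured marker genes as differing between dCINs and MNs on the same arrays. The sums are therefore no independent check of the labels. Signals of Nefl M25638_s_at, Nefh X13804cds_at, Slc18a3 X80395cds_s_at and Slc32a1 rc_AA996551_s_at overlapped between dCINs and MNs.

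No NMDA receptor probe set was called between dCINs and MNs. Over all probe sets, 40 were called, 3.81%. At an unadjusted p under 0.05, 1 of the 9 members passed, against 10.9% of all probe sets, and an exact two-sided permutation test per probe set gave 0 of 9 at that level (9.90% of all). Signals were lower in dCINs for 7 of 9 members, against 57.0% of all probe sets, with a median log2 difference of -0.18 over the members and -0.03 over all. Between dCINs and MIX, 0 of 9 members were called (0.476% of all), 0 at an unadjusted p under 0.05 (7.14% of all) and 1 by the unadjusted permutation test (7.33% of all). Between MNs and MIX, 0 of 9 were called (0.952% of all), 3 at an unadjusted p under 0.05 (11.8% of all) and 2 by the unadjusted permutation test (9.43% of all). Members had lower signals in 4 of 9 cases for dCINs against MIX (45.6% of all) and in 2 of 9 for MNs against MIX (43.1% of all). The dCIN and MN comparisons with MIX share the MIX arrays.

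**Figure D1:**
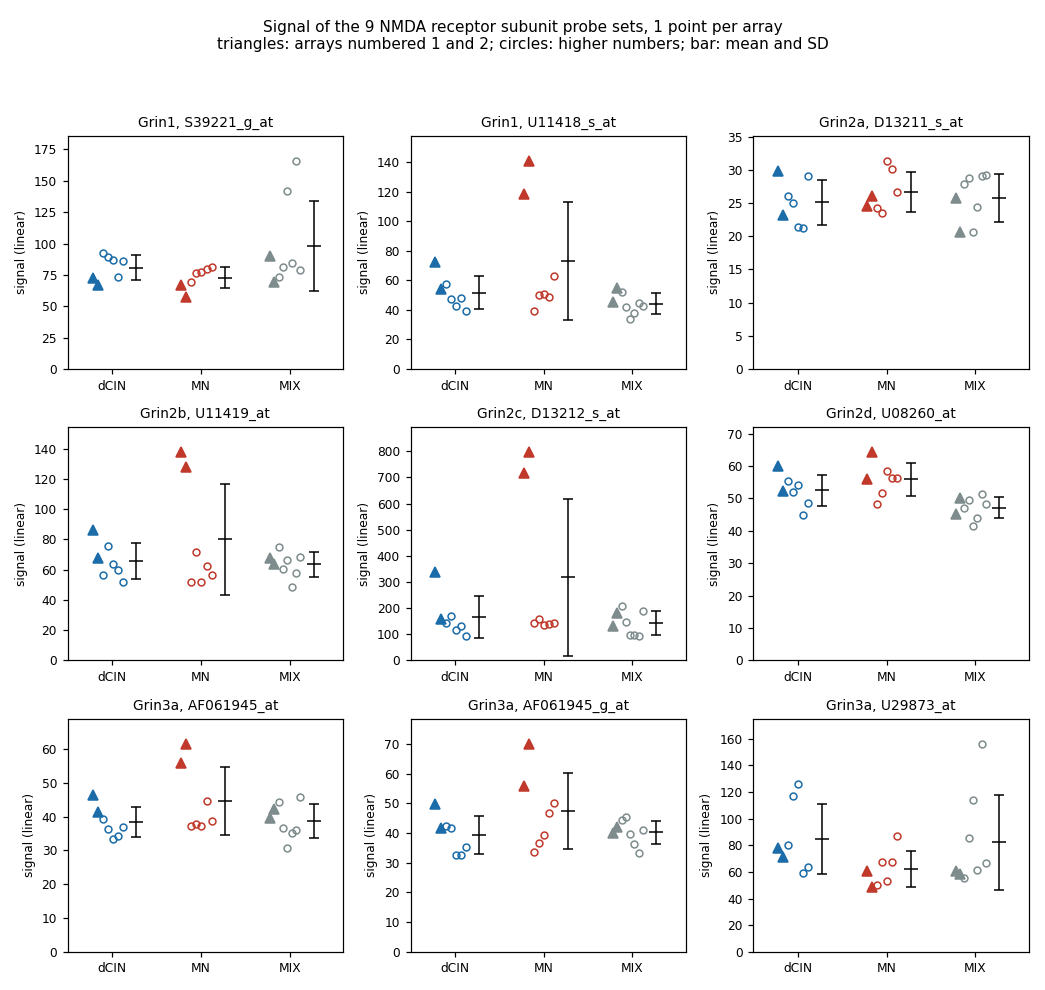
Signal (linear scale) of the 9 NMDA receptor subunit probe sets in every array, by group. Each point is 1 array, with triangles for arrays numbered 1 and 2 and circles for higher numbers, and bars give the mean and SD (n = 7 dCIN, 7 MN and 8 MIX arrays). MN arrays 1 and 2 lie above all other arrays in 5 panels, and in the Grin2c panel they reach 718 and 796.

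Grin1, the gene of the obligatory subunit GluN1, was represented by probe sets whose dCIN minus MN differences had opposite signs. The 95% intervals of both included 0. For S39221_g_at the lowest, median and highest signals were 66.9, 85.7 and 92.2 in dCINs, 57.6, 76.6 and 81.4 in MNs and 69.3, 83.0 and 165.9 in MIX. The groups overlapped, and MIX arrays 5 and 7, at 142 and 166, stood above every other array. The log2 difference of dCINs minus MNs was 0.15 (SE 0.11, 95% interval -0.07 to 0.38, adjusted p = 0.705). Without MN arrays 1 and 2 it was 0.07 (adjusted p = 0.92), and in arrays 3 and higher of both groups it was 0.15. For U11418_s_at the signals were 39.3, 48.2 and 72.2 in dCINs, 39.3, 50.5 and 141 in MNs and 33.9, 43.7 and 55.0 in MIX. Here MN arrays 1 and 2, at 119 and 141, were the highest, while MN arrays 3 to 7, at 39.3 to 62.6, overlapped the dCIN arrays. Outside MN arrays 1 and 2 the signals, 33.9 to 72.2, lay around the array medians of 43.5 to 50.9, and detection was not tested. The log2 difference of dCINs minus MNs was -0.37 (SE 0.27, 95% interval -0.93 to 0.20, adjusted p = 0.715). Without MN arrays 1 and 2 it was 0.03 (95% interval -0.30 to 0.36, adjusted p = 0.98), and in arrays 3 and higher of both groups it was -0.09. With only dCIN array 1 left out it was -0.45 (adjusted p = 0.491).

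The Grin1 probe sets also pointed in opposite directions for MNs minus MIX. For S39221_g_at the log2 difference was -0.37 (95% interval -0.70 to -0.04, unadjusted p = 0.0287, adjusted p = 0.412), and for U11418_s_at it was 0.58 (95% interval 0.12 to 1.04, unadjusted p = 0.0165, adjusted p = 0.393). Neither passed the threshold. Without MN arrays 1 and 2 the values were -0.29 and 0.18. Over the 22 arrays the log2 signals of these 2 probe sets correlated at r = -0.53 (r = -0.42 over the 20 arrays other than MN 1 and 2), given as a description of arrays that share their normalization. What transcript forms either probe set detects was not analysed here.

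Among GluN2 genes, Grin2c had the widest spread. The Grin2c probe set D13212_s_at had signals of 338, 158, 144, 171, 118, 131 and 92.1 in dCIN arrays 1 to 7. In MN arrays 1 to 7 its signals were 718, 796, 144.5, 158, 134, 137 and 142. In MIX arrays the lowest, median and highest were 91.9, 139 and 207. High signals were thus seen in MN arrays 1 and 2 and, at a lower level, in dCIN array 1, and all other arrays of the 3 groups overlapped. Means were 164.5 ± 80.7 in dCINs, 318.5 ± 300.4 in MNs and 142.4 ± 45.7 in MIX (SD, n = 7, 7 and 8). The log2 difference was -0.60 for dCINs minus MNs (SE 0.45, 95% interval -1.56 to 0.36, adjusted p = 0.716) and 0.76 for MNs minus MIX (SE 0.38, 95% interval -0.03 to 1.55, adjusted p = 0.412). Without MN arrays 1 and 2 these were 0.09 (95% interval -0.43 to 0.60) and 0.07 (95% interval -0.45 to 0.59). With only dCIN array 1 left out, dCINs minus MNs was -0.79 (adjusted p = 0.464).

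Grin2b, which encodes a GluN2 subunit typical of the immature brain, followed the same arrays. U11419_at had signals of 52.1, 63.8 and 86.2 in dCINs, 51.8, 62.7 and 138 in MNs and 48.2, 65.2 and 75.0 in MIX (lowest, median and highest). MN arrays 1 and 2 were at 138 and 128, whereas MN arrays 3 to 7, at 51.8 to 71.4, overlapped the dCIN arrays. The log2 difference of dCINs minus MNs was -0.18 (SE 0.23, 95% interval -0.67 to 0.30, adjusted p = 0.796), and 0.15 (adjusted p = 0.77) without MN arrays 1 and 2. Grin2a, whose product becomes common in the maturing forebrain, had low signals that were even across groups. D13211_s_at had signals of 21.3, 25.1 and 29.8 in dCINs, 23.6, 26.1 and 31.4 in MNs and 20.6, 26.8 and 29.2 in MIX, and the groups overlapped over most of their range. Its log2 difference of dCINs minus MNs was -0.09, with a 95% interval of -0.31 to 0.14. All signals of D13211_s_at lay below the array medians of 43.5 to 50.9, and detection of Grin2a was not tested. The paper took Gfap and Mbp, at very low intensities, as not expressed.

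Grin2d, whose product forms slowly deactivating receptors with weak magnesium block, had the smallest unadjusted p of all members. U08260_at had signals of 60.0, 52.4, 55.4, 52.0, 54.1, 44.9 and 48.5 in dCIN arrays 1 to 7. In MN arrays 1 to 7 they were 56.1, 64.2, 48.2, 51.7, 58.4, 56.3 and 56.2. In MIX the lowest, median and highest were 41.4, 47.7 and 51.2. MN arrays other than array 3 lay above every MIX array, and dCIN arrays overlapped both groups. The log2 difference of MNs minus MIX was 0.24 (SE 0.08, 95% interval 0.08 to 0.41, exact permutation p = 0.00202, limma p = 0.00519), and the adjusted p was 0.237 by limma and 0.236 by permutation. The interval lay above 0, but the difference was not called over all probe sets. Signals of U08260_at lay near the array medians of 43.5 to 50.9, and detection was not tested. Weighting arrays by their quality gave a log2 difference of 0.22 and an adjusted p of 0.0749, which passed the threshold. Over all settings run, the adjusted p ranged from 0.0749 to 0.719, and without MN arrays 1 and 2 the difference was 0.20. For dCINs minus MIX the difference was 0.15 (95% interval -0.01 to 0.31, adjusted p = 0.786), and for dCINs minus MNs it was -0.09 (95% interval -0.28 to 0.10, adjusted p = 0.732).

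GluN3A, the product of Grin3a, lowers calcium entry when it joins an NMDA receptor. Its gene had 3 probe sets, of which AF061945_at and AF061945_g_at were designed from the same sequence. AF061945_at had signals of 33.5, 37.0 and 46.5 in dCINs, 37.1, 38.7 and 61.6 in MNs and 30.8, 38.1 and 45.7 in MIX. AF061945_g_at had signals of 32.4, 41.6 and 49.6 in dCINs, 33.5, 46.7 and 70.0 in MNs and 33.2, 40.4 and 45.3 in MIX. In both, MN arrays 1 and 2 were the highest of the 22 arrays and the rest overlapped. Most of these signals lay below the array medians, and detection was not tested. The log2 differences of dCINs minus MNs were -0.20 and -0.24 (adjusted p = 0.69 for each), and -0.03 and -0.07 without MN arrays 1 and 2.

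Probe set U29873_at of Grin3a pointed the other way. Its signals in dCIN arrays 1 to 7 were 77.6, 70.9, 80.6, 117, 126, 59.5 and 63.4. In MN arrays 1 to 7 they were 60.6, 48.7, 50.3, 67.5, 53.4, 67.5 and 87.1, and MIX ranged from 55.8 to 156 with a median of 64.2. The highest signals were in dCIN arrays 4 and 5 and in MIX arrays 5 and 7, at 114 and 156, and the groups overlapped. Means were 85.1 ± 26.3 for dCINs and 62.2 ± 13.4 for MNs (SD, n = 7 arrays each). The log2 difference of 0.43 (SE 0.18, 95% interval 0.03 to 0.82) had an unadjusted limma p of 0.036, an adjusted p of 0.415 and an exact permutation p of 0.0513, and it was not called. Without MN arrays 1 and 2 it was 0.36, and without dCIN array 5 it was 0.32.

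**Figure D2:**
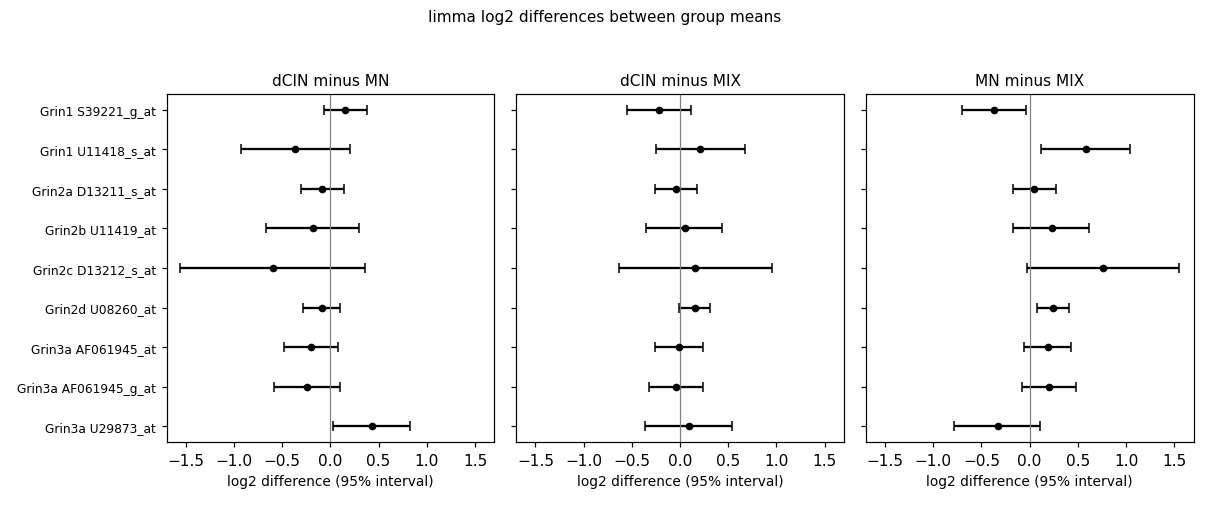
Differences between group means on the log2 scale for the 9 probe sets, with 95% intervals from limma, for dCINs minus MNs, dCINs minus MIX and MNs minus MIX. None was called and intervals of Grin2c are the widest. Intervals leave out 0 for Grin3a U29873_at in dCINs minus MNs (0.03 to 0.82) and, in MNs minus MIX, for Grin2d (0.08 to 0.41), Grin1 U11418_s_at (0.12 to 1.04) and Grin1 S39221_g_at (-0.70 to -0.04).

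Several members shared 1 pattern across arrays. MN arrays 1 and 2 held the highest signals of all 22 arrays for 5 of 9 probe sets (Grin1 U11418_s_at, Grin2b, Grin2c and both AF061945 probe sets of Grin3a). This was so for 200 of 1050 probe sets, 19.0%. The next highest array was dCIN array 1 for 4 of these 5. The mean log2 signal of arrays 1 and 2 minus that of arrays 3 and higher had the same sign in dCINs, MNs and MIX for 8 of 9 members (all but Grin2a), against 39.8% of all probe sets. For Grin2c this shift was 0.84 in dCINs, 2.40 in MNs and 0.25 in MIX. For Grin1 U11418_s_at it was 0.43, 1.38 and 0.26, and for Grin1 S39221_g_at -0.29, -0.30 and -0.33 in the same groups. In MIX it ranged in size from 0.03 for Grin2d and 0.04 for AF061945_g_at to -0.50 for U29873_at. For the 5 members with MN arrays 1 and 2 highest, the sign in MNs follows from that pattern. The AF061945 probe sets, from the same sequence, count as 2 of the 8. The shift was not tested, and the labels give the number as the biological replicate, with no batch named. Log2 signals of Grin2c correlated over the 22 arrays with those of U11418_s_at (r = 0.93), Grin2b (r = 0.92) and AF061945_at (r = 0.90). Over the 20 arrays without MN arrays 1 and 2 the values were r = 0.72, 0.71 and 0.75. S39221_g_at and U29873_at correlated with each other (r = 0.77) and negatively with Grin2c (r = -0.61 and -0.39). These correlations describe arrays that share normalization and amplification.

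**Figure D3:**
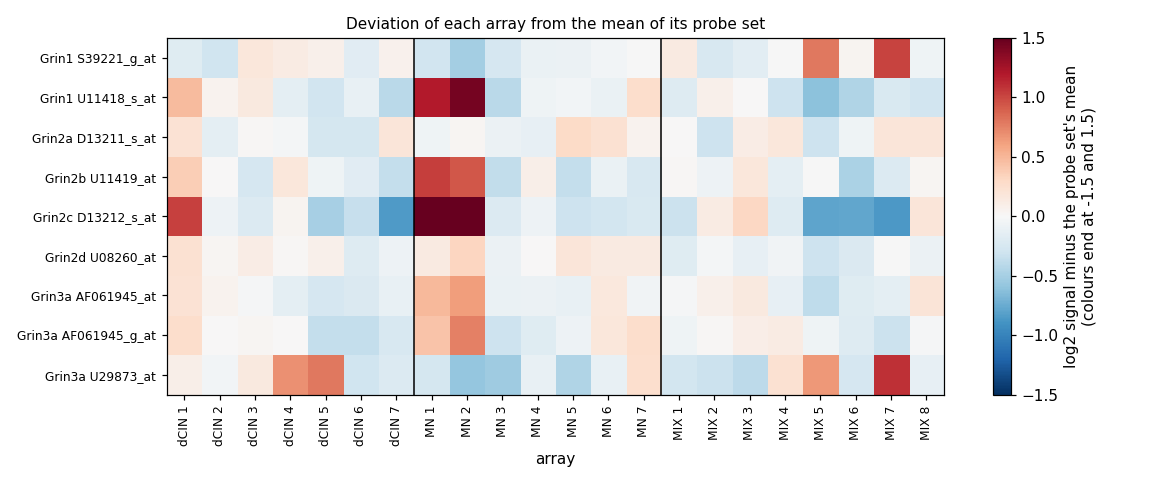
Deviation of each array from the mean log2 signal of its probe set, with arrays in columns (dCIN, MN, MIX) and probe sets in rows. Red marks a higher and blue a lower signal, and the colour scale is closed at both ends. Columns MN 1 and MN 2 are red in the rows of Grin1 U11418_s_at, Grin2b, Grin2c and both AF061945 probe sets, and MIX 5 and MIX 7 are red for S39221_g_at and U29873_at.

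The MN samples of over 200 cells were only these 2 arrays. In a fit of dCINs minus MNs with the log2 number of cells as a covariate, the log2 differences were 0.13 for Grin2c, 0.02 for U11418_s_at and 0.22 for Grin2b, with adjusted p-values of 0.979, 0.999 and 0.73. With the same covariate the differences of these 3 probe sets from MIX were not smaller. That fit also holds MN arrays 1 and 2, with 250 and 230 cells. The cell numbers of dCINs (50 to 100) and MIX (95 to 187) hardly overlap. The covariate is thus poorly separated from the group in dCINs minus MIX. MNs minus MIX gave 0.86 for Grin2c, 0.63 for U11418_s_at and 0.28 for Grin2b (adjusted p = 0.117, 0.102 and 0.233), against 0.76, 0.58 and 0.23 without it. For dCINs minus MIX the values were 0.94, 0.61 and 0.46 (adjusted p = 0.113, 0.102 and 0.102), against 0.16, 0.21 and 0.05 without it. The largest MIX sample (187 cells) had a Grin2c signal of 133, inside the range of the other MIX arrays, and dCIN array 1, with 60 cells, had 338. Within arrays 1 and 2 of each group, dCINs minus MNs gave -1.71 for Grin2c, -1.05 for U11418_s_at and -0.80 for Grin2b, and in arrays 3 and higher -0.15, -0.09 and 0.06. In arrays 1 and 2 alone, 3 of 9 members passed the threshold in dCINs minus MNs (13.7% of all probe sets) and 5 of 9 in MNs minus MIX (33.0% of all). That subset was taken because of these high signals, so its values are a description. Of other cell types, astrocyte marker sums (6 probe sets of 3 of 7 genes) were 827 and 1086 in MN arrays 1 and 2, against 844.5 to 1456 in MN arrays 3 to 7. The oligodendrocyte sums (7 probe sets of 4 of 6 genes) were 589 and 772 in MN arrays 1 and 2, against 499.7 to 716 in MN arrays 3 to 7. Motor neuron sums were 12410 and 14200, against 12330 to 13580. Bright probe sets weigh most in such sums, and S100b alone had 474 and 765 in MN arrays 1 and 2. The astrocyte genes in the sum were S100b, Slc1a2 and Slc1a3. Gfap, for which the paper names probe sets on this array, was not in the sum. Taken singly, 2 of 7 oligodendrocyte probe sets (Mag M22357_g_at and Mog L21995_s_at) had their highest signals in MN arrays 1 and 2. This was so for 0 of 6 astrocyte and 2 of 8 motor neuron probe sets, and for 19.0% of all probe sets. The part of cell number and of array handling in the result was not tested beyond these values.

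**Figure D4:**
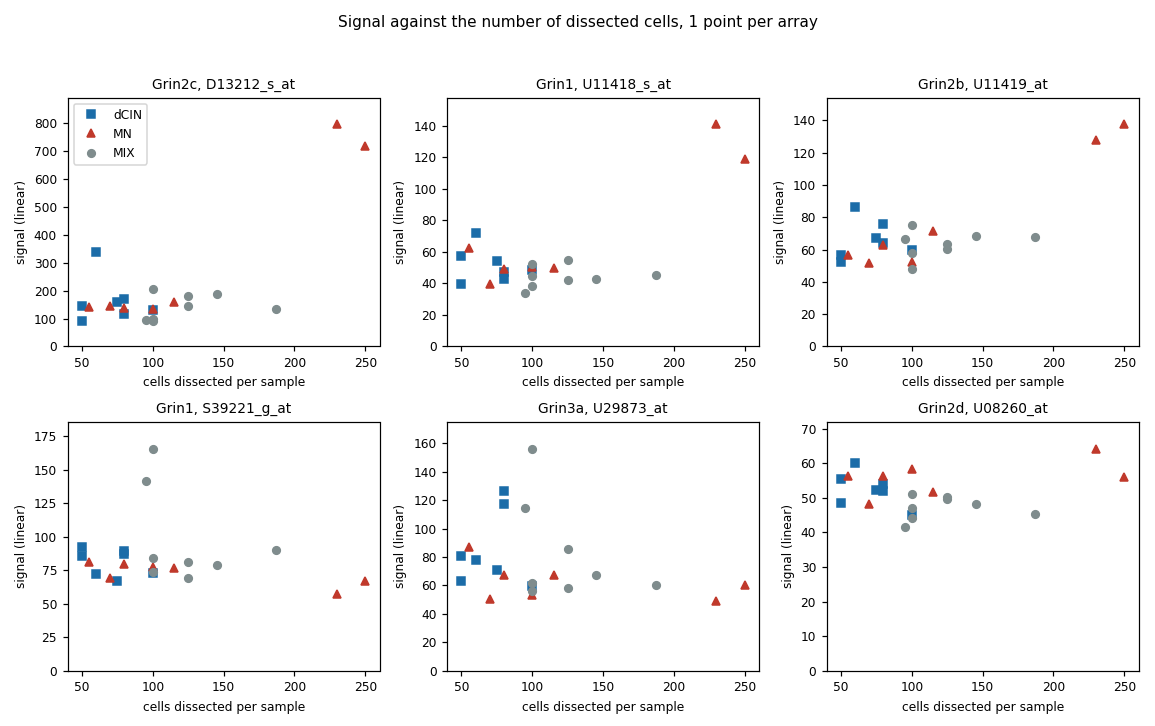
Signal (linear scale) against the number of dissected cells per sample for 6 probe sets, 1 point per array, squares for dCINs, triangles for MNs and circles for MIX. Both MN samples of over 200 cells lie far above the rest for Grin2c, Grin1 U11418_s_at and Grin2b, while dCIN array 1 is raised at 60 cells for Grin2c.

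For each gene, the brightest probe set was compared with those of other named genes over the 22 arrays. The gene whose log2 signals were most alike was Snap25, a vesicle fusion protein, for Grin2c (r = 0.98) and the potassium channel gene Kcna5 for Grin2b (r = 0.96). It was the growth factor gene Fgf5 for Grin1 S39221_g_at (r = 0.95), the sodium channel gene Scn8a for Grin3a U29873_at (r = 0.89), Casp1 for Grin2d (r = 0.80) and Socs2 for Grin2a (r = 0.70). Each was the highest of 952 candidates, so these values are high by selection. Signals of the Socs2 probe set, 10.6 to 23.5, lay below all array medians (43.5 to 50.9), as did those of Grin2a. Without MN arrays 1 and 2 the Snap25 and Kcna5 values were r = 0.92 and 0.88.

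Proteins that bind or regulate NMDA receptors were followed in a list of 48 genes, of which 15 were measured, on 21 probe sets. Of these 21, 1 was called higher in dCINs than in MNs and 0 lower, where 3.81% of all probe sets were called, with a median log2 difference of 0.14 against -0.03 over all probe sets. Prkcb, a protein kinase C gene, rose in dCINs on probe set X04139_s_at, where dCINs averaged 953 ± 179 and MNs 396 ± 178 (log2 difference 1.38, SE 0.26, adjusted p = 0.00509). Its other probe sets K03486_s_at and E01789cds_s_at were not called, at 46.4 and 38.2 in dCINs and 36.3 and 40.5 in MNs. Calm3, a calmodulin gene, averaged 808 ± 83.4 in dCINs and 653 ± 157 in MNs (adjusted p = 0.415), and Ppp3ca, a calcineurin gene, 71.3 ± 15.7 in dCINs and 56.3 ± 12.1 in MNs (adjusted p = 0.463). Dlg4, which encodes the postsynaptic scaffold PSD-95, had 80.0 ± 11.1 in dCINs and 96.1 ± 32 in MNs, and its highest 2 arrays were also MN 1 and 2. That was so for 3 of the 21 partner probe sets and 2 of 14 other ionotropic glutamate receptor probe sets, against 19.0% of all. None of the 21 was called against MIX, where 0.476% of all probe sets were called for dCINs and 0.952% for MNs. Of the AMPA, kainate and delta receptor genes, 9 of 11 were measured on 14 probe sets, and 1 was called between dCINs and MNs (3.81% of all), Grik1, a kainate receptor subunit gene, with 66.4 ± 17.8 in dCINs and 30.4 ± 5.76 in MNs (log2 difference 1.10, adjusted p = 0.0027). The Grik1 call was lost in a fit over all 22 arrays (adjusted p = 0.119). Gria2, an AMPA receptor gene, fell just short of a call on M38061_at (log2 difference 0.90, adjusted p = 0.102). Its probe set M36419_s_at gave -0.20 (adjusted p = 0.643). The paper, which ranked genes by an average over several tests, listed Gria2 M38061_at as higher in dCINs than in MNs. It listed the called Grik1 and Prkcb probe sets too, on the same arrays, so these calls are no independent result.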

How the data were processed

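The values are intensities as deposited. From perfect match probes of the RN_U34 array, the authors subtracted a global background, applied QLT (a linear scaling of quantiles) and then QPN (a quantile projection) across the 22 arrays, summarized probes after Li and Wong on a linear scale (affy, version not given in the sources used here) and took off a universal minimum. These steps pull the arrays toward a common distribution. Of 1050 probe sets, 961 had 1 gene symbol in the platform annotation, 7 several and 82 none. Log2 values, with no added normalization, were fitted with limma 3.58.1 in R 4.3.3 (lmFit, eBayes). dCINs minus MNs used their 14 arrays and the MIX comparisons all 22. Exact two-sided permutation tests ran over 3432 splits of the arrays (6435 with MIX). The members and lists were chosen with earlier results of these data known. Named genes were all members, the most alike gene of each, and up to 3 partner genes with the smallest p, together with calls in the other receptor list. Dlg4, Gria2, further Prkcb probe sets and single marker probe sets were named after their values were seen. Precision is limited by how many arrays each group has. Alternatives were other scalings, offsets, filters, priors and weights, the replicate block, cell number, array subsets and each array left out. Fits were tested on simulated data. Promoter windows come from RefSeq (GRCr8), where 4 of the 6 measured genes matched. Figures used matplotlib 3.10.9.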

Additional observations from a re-analysis of the deposited data

How the results depend on the processing

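Counts of called members stayed at 0 in most settings. They were 0 in all 3 comparisons with each array left out (range 0 to 0). With array weights 1 member was called in MNs minus MIX, Grin2d, and restricted to arrays 1 and 2, an added setting, 3 were called in dCINs minus MNs (13.7% of all probe sets) and 5 in MNs minus MIX (33.0% of all). These arrays were taken for the members' high signals there, so those calls add no support. A mean log2 of at least 6 left 4 members to test. Over single members, 297 of 318 planned values kept their direction and side of the threshold, 20 reversed and 1 passed. In the settings added after the data were seen, 32 of 45 did, 5 reversed and 8 passed.

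For dCINs minus MNs, Grin2b became 0.057 with array weights, 0.22 with cell number, 0.15 without the MN samples of over 200 cells and 0.061 in arrays 3 and higher. U11418_s_at became 0.020 with cell number and 0.028 without those samples, Grin2c 0.13 and 0.088, and Grin2a 0.053 in arrays 1 and 2. For dCINs minus MIX, Grin2b became -0.0052 with quantile normalization and -0.027 in arrays 3 and higher, and Grin2c -0.061 with array weights and -0.018 in arrays 3 and higher. AF061945_at became 0.021 with the replicate block, 0.16 with cell number and 0.11 in arrays 1 and 2, AF061945_g_at 0.097 with cell number and 0.15 in arrays 1 and 2, U29873_at -0.058 with cell number, and Grin2a 0.19 in arrays 1 and 2. For MNs minus MIX, array weights gave -0.063 for Grin2b, -0.018 for Grin2c and -0.0035 for AF061945_at, and Grin2b was -0.089 in arrays 3 and higher and -0.11 without the MN samples of over 200 cells. The cause was not tested. Leaving out single arrays, dCINs minus MIX ranged from -0.023 to 0.098 for Grin2b, -0.032 to 0.28 for Grin2c, -0.062 to 0.021 for AF061945_at, -0.10 to 0.0024 for AF061945_g_at and -0.014 to 0.24 for U29873_at.

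Arrays of different groups share replicate numbers. Deviations of same-numbered arrays correlated at r = -0.226 to 0.532, over 0.1 in 5 of 7 pairs of dCINs and MNs, 4 of 7 of dCINs and MIX and 3 of 7 of MNs and MIX, so by the rule that every pair exceed 0.1 they were not treated as paired. With the replicate block, 0 members were called in each comparison and 55, 7 and 9 of all probe sets, against 40, 5 and 10 without it. Of dCIN arrays, 2 of 7 correlated best with their own number among MN arrays. Over all probe sets, calls in dCINs minus MNs were 83 with arrays 1 and 2 as a covariate and 76 with array weights. In dCINs minus MIX they were 68 with cell number, 2 with quantile normalization, 2 with the trend and robust prior and 2 by permutation. In MNs minus MIX they were 347 in arrays 1 and 2, 33 with array weights, 3 with quantile normalization, 2 by permutation and 2 without the MN samples of over 200 cells. Leaving out single arrays gave 31 to 55, 1 to 8 and 2 to 14. Prkcb X04139_s_at was called in all 28 other settings and Grik1 in 26 of 27.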
